A study of Physcomitrium patens with 24 samples.

Results

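Protein interaction profile sequencing (PIP-seq) reads out where bound proteins keep a nuclease off RNA. The data described here are the protected sites found with the nuclease of paired RNA, RNase V1 (here dsRNase), after 30 and after 60 min of abscisic acid (ABA). The tissue was protonema, the filamentous juvenile stage of the moss Physcomitrium patens. The sites were chosen by name: a site of the 30-min or the 60-min list belonged when at least 1 of the call names merged into it was a dsRNase name, and names of the single-strand-specific nuclease (ssRNase) were left out. This gave 90044 sites of the 147131 in the 3 lists of the series, with 44664 at 30 min (93.5% of that list) and 45380 at 60 min (96.3%).

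The 8 libraries behind these sites are the dsRNase libraries of 30 min and of 60 min of ABA. At each time there were 2 replicates, and each replicate was divided into a protein-bound part and a structure-only part. Both groups carried ABA, from liquid cultures grown from sonicated protonema. The labels disagree on the concentration, with 10 µM in one place and 10 mM in another. Methanol was given to the control cultures, which are those of 0 min, and the labels list no culture without ABA at 30 or 60 min, so an effect of ABA and of elapsed time cannot be told apart. All libraries were crosslinked with formaldehyde. The labels number the replicates and do not say that they are separate cultures, so p-values measure a spread that may be purely technical. The call names show 4 dsRNase call sets, replicates 1 and 2 of each time, and these are the units that were compared. The lists hold no read counts and no RNA levels, so depth is unknown. More sites on a transcript may come from more of that RNA or from more bound protein, which cannot be told apart here.

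ABA is a hormone that plants make in drought and under other water stress. In flowering plants and in mosses it binds receptors that inhibit type 2C protein phosphatases, which releases SnRK2 kinases to phosphorylate their targets, transcription factors among them. RNA-binding proteins follow transcripts from splicing to translation and decay, so the set of protected stretches depends both on which RNAs are present and on which proteins hold them. RNase V1 cuts RNA that is paired or stacked, and the sites it reports as protected are therefore stretches where protein covered structured RNA. No annotation of the build of these lists was used here, so results are given for sites, for loci and for regions, with no gene names and no sequence.

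Between 30 and 60 min the number of dsRNase calls did not move beyond the spread of the replicates, and median site width was lower in both 60-min sets. At 30 min the sets held 41292 calls in replicate 1 and 29773 in replicate 2, and at 60 min they held 38815 and 36283. Replicate 2 of 30 min was the smallest set and replicate 1 of 30 min the largest, so the 60-min sets lie between them. The means were 35532.5 ± 8145 and 37549 ± 1790 calls (SD, n = 2), with p = 1 in an exact two-sided permutation test. With 2 sets against 2 the smallest p possible is 0.333, so no single measure of the call sets could pass a threshold. Without replicate 2 of 30 min the difference turned, from 2016.5 more calls at 60 min to -3743, and within replicate number 1 it was -2477.

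The 2 strands gave different orders of the sets. On the plus strand the 30-min sets held 24627 and 16597 calls and the 60-min sets 21003 and 19120, with the later sets again between the earlier ones. On the minus strand they held 16665 and 13176 at 30 min and 17812 and 17163 at 60 min, so both later sets were above both earlier ones. The plus strand held a mean of 57.7% ± 2.75 of the calls of 30 min and 53.4% ± 1.00 of those of 60 min (SD over sets, n = 2; exact permutation p = 0.333), and the groups did not overlap. The 2 replicates of 0 min held 55.7% and 46.3%, further apart than the means of 30 and 60 min. A difference of this size can thus arise between replicates of 1 time. The strand is carried through the results below, and what sets its share was not tested.

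**Figure D1:**
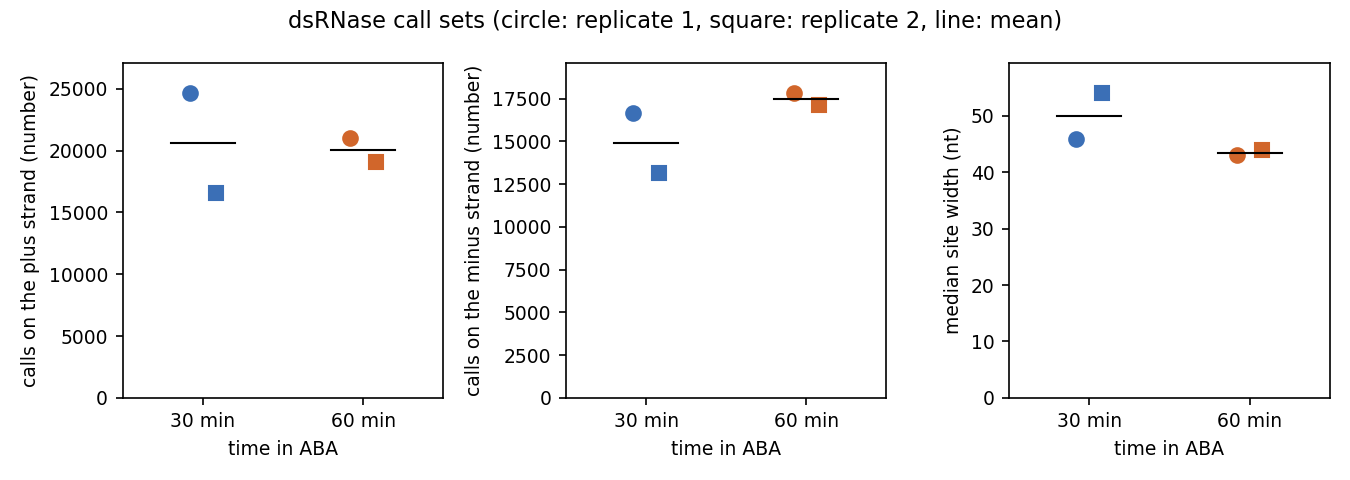
Calls on each strand (number) and median site width (nt) of the 4 dsRNase call sets, by time in ABA, with circles for replicate 1, squares for replicate 2 and lines for the mean of the time. The minus-strand calls of 60 min (17163 and 17812) lie above those of 30 min (13176 and 16665), and the widths of 60 min (43 and 44 nt) below those of 30 min (46 and 54 nt).

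Median width over the sites of a set was 46 and 54 nt at 30 min and 43 and 44 nt at 60 min. The groups did not overlap, with means of 50 ± 5.66 and 43.5 ± 0.707 nt (SD, n = 2; exact permutation p = 0.333). The difference of -6.5 nt was -2.5 nt without replicate 2 of 30 min and -10.5 nt without replicate 1 of 30 min, so its size rests on single sets. Among all dsRNase sites of a time, those of at least 200 nt numbered 1378 at 30 min (3.09%) and 991 at 60 min (2.18%), and the widest measured 1538 and 1372 nt. A width belongs to the merged site, and ssRNase calls had been merged into 28.5% of the 30-min sites against 16.1% of the 60-min sites. Sites with dsRNase names alone had a median of 38 nt at 30 min and 36 nt at 60 min, a gap of 2 nt in place of 5 nt between medians of 44 and 39 nt over all dsRNase sites. Sites called in both replicates were wider than those of 1 replicate at both times, with medians of 63 against 35 nt at 30 min and 53 against 31 nt at 60 min.

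To compare positions, sites of the 30-min and 60-min lists that overlapped on the same strand were joined into 55128 loci. A site was present at both times in 30351 of them (55.1%), at 30 min alone in 13212 (24.0%) and at 60 min alone in 11565 (21.0%). All 4 sets called 14443 loci (26.2%), here called constant. Their widest site had a median of 79 nt, against 41 nt over all loci. The replicates of 60 min shared 54.1% of the loci called in either, and the replicates of 30 min 47.6%. Sets of different times shared 50.1% (replicates 1 of both times), 47.6% (replicates 2), 46.7% and 45.3%. By this measure, which depends on set size, replicate 1 of 30 min shared more with replicate 1 of 60 min than with its own replicate. As a share of the partner's loci the order was reversed. Replicate 1 of 30 min held 78.4% of the loci of replicate 2 of 30 min and 70.1% of those of replicate 1 of 60 min.

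Constant loci were slightly narrower in the 60-min list. Their covered length had a median of 77 nt at 30 min and 70 nt at 60 min. Per locus the median difference was -3 nt, with 9403 loci (65.1%) wider at 30 min, 3890 (26.9%) wider at 60 min and 1150 equal. In 8724 (60.4%) the times differed by at most 10 nt. The direction was the same on the plus strand (67.7% wider at 30 min) and the minus strand (61.9%). Among the 6067 constant loci with no ssRNase call at either time, 59.6% were wider at 30 min, and the median difference was -2 nt. More sites at 60 than at 30 min were found in 2206 constant loci and fewer in 607, while 11413 of all 14443 had 1 site at each time. With no ssRNase call at either time, 5394 of 6067 had 1 site at each time. How far merged ssRNase calls set these counts was not tested.

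Loci were called gained when both 60-min sets and neither 30-min set had a call, and lost in the opposite case. By this rule 2872 loci were gained (5.21% of all loci) and 2349 were lost (4.26%). The order of the 2 counts was not the same on the strands. On the plus strand 1158 were gained (3.75% of its loci) and 1460 lost (4.72%), and on the minus strand 1714 were gained (7.08%) and 889 lost (3.67%). The excess of gains therefore rests on the minus strand. It also rests on the sets: with 1 set left out, so that a single call decides for its time, leaving out 30-min replicate 1 gave 6786 gained and 4702 lost loci, and leaving out 30-min replicate 2 gave 4343 and 10859. Leaving out 60-min replicate 1 gave 6581 and 4859, and leaving out 60-min replicate 2 gave 7856 and 3801.

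The replicates can be read against each other. Of the loci that replicate 1 called at 60 min alone, 2872 were also called at 60 min alone by replicate 2, and 983 were called by replicate 2 at 30 min alone. Of those that replicate 1 called at 30 min alone, 2349 were the same in replicate 2 and 1406 were opposite. Replicate 2 thus went the same way in 74.5% and 62.6% of the loci where it differed between the times. Over all loci where replicate 2 differed, 59.2% were called at 60 min alone and 40.8% at 30 min alone, which are the shares to set beside these. On the minus strand the shares were 76.9% and 60.8%, beside 63.9% and 36.1% over all its loci, and on the plus strand 71.2% and 63.7%, beside 54.9% and 45.1%. The remaining loci of replicate 1 could not be read in this way. Replicate 2 had no call at either time in 4984 of the 10312 loci of the first kind and 8510 of the 13713 of the second, and calls at both times in 1473 and 1448.

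The widest site of a locus had a median of 37 nt for gained loci (quartiles 29 and 49) and 44 nt for lost loci (quartiles 35 and 59). It was 41 nt over all loci and 35 nt for loci that were not gained, lost or constant. Gained loci take their sites from the 60-min list and lost loci from the 30-min list. The dsRNase sites of these lists had medians of 39 and 44 nt, and of 53 and 63 nt where called in both replicates. Position along the region, from 0 at the 5′ end to 1 at the 3′ end, differed little, with medians of 0.543 for gained, 0.506 for lost and 0.484 for constant loci in regions of at least 5 loci. The 3′ end of the region, from position 0.8 on, held 26.8% of the gained, 24.2% of the lost and 20.7% of the constant loci, and 25.7% of the remaining ones. Across the 27 chromosomes the gained share ran from 3.58% on chromosome 12 to 6.99% on chromosome 27, and the lost share from 3.34% on chromosome 8 to 5.77% on chromosome 22. Gains outnumbered losses on 21 of the 27.

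The lists of 0 min, which this rule did not use, give a different picture for gained and lost loci. Of the gained loci, 1688 (58.8%) had no dsRNase call at 0 min and 606 (21.1%) had one in both replicates. Of the lost loci 765 (32.6%) had none and 939 had one in both. Over all loci 39.4% had none and 39.6% had one in both. Each 0-min replicate showed the same order. Replicate 1 had a call at 26.6% of the gained and 58.1% of the lost loci, and replicate 2 at 35.7% and 49.3%. The order also held on each strand, with no call at 0 min in 63.0% of gained and 35.4% of lost plus-strand loci, and in 56.0% and 27.9% on the minus strand. Constant loci were the ones most often present at 0 min (70.4% in both replicates).

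**Figure D2:**
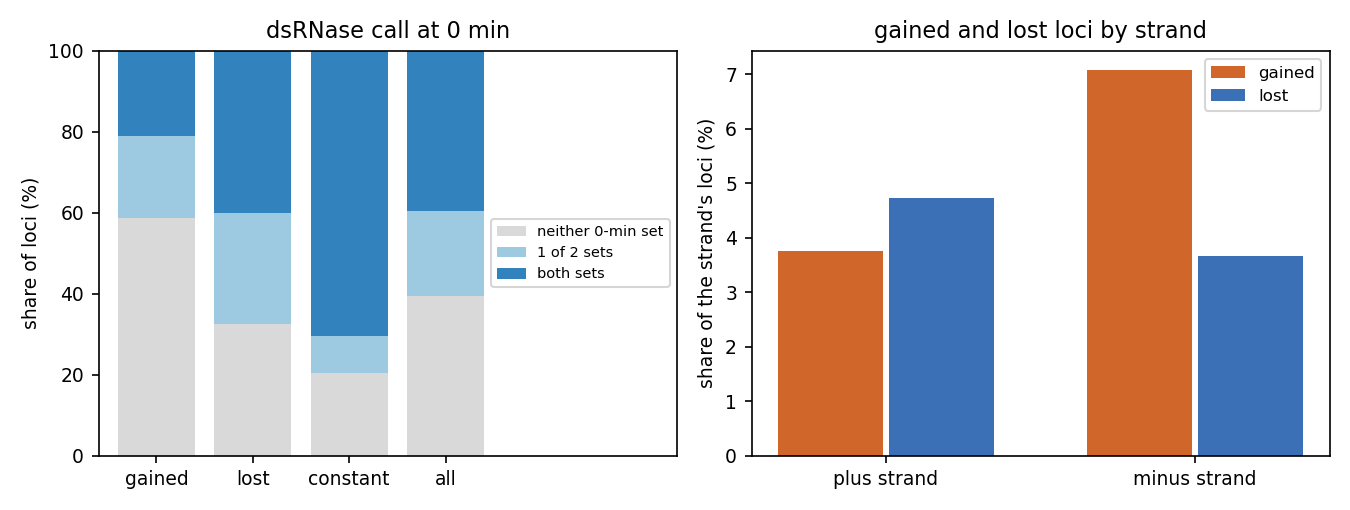
Left, share of loci (%) with a dsRNase call in neither, 1 or both 0-min sets, for loci gained or lost from 30 to 60 min, constant loci and all loci. Right, gained and lost loci as a share (%) of the loci of each strand. No call at 0 min was found for 58.8% of gained and 32.6% of lost loci, and gains exceeded losses on the minus strand (7.08% against 3.67%) but not on the plus strand (3.75% against 4.72%).

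The 5 widest gained loci measured 146 to 211 nt. On chromosome 16 (9585954 to 9586164, minus strand) a site of 211 nt had 0 calls in both 30-min sets and 1 and 2 calls at 60 min, and on chromosome 20 (1786056 to 1786255, minus strand) a site of 200 nt had 2 and 2 calls at 60 min. The next were sites of 195 nt on chromosome 13 (2394273 to 2394467, minus strand) and of 151 and 146 nt on chromosome 23 (5849267 to 5849417, plus strand, and 5824308 to 5824453, minus strand). The chromosome 20 locus and the plus-strand chromosome 23 locus also held an ssRNase call of 60 min, which their widths may include. None of the 5 had a dsRNase call at 0 min. The first lies in a region of 19 loci (9585699 to 9588467) that went from 3 and 3 called loci at 30 min to 17 and 17 at 60 min (log2 2.15 ± 0.31, SE; limma adjusted p = 0.00175), with 0 and 0 at 0 min. That region was reached through a locus already chosen as gained. It met the minimum mean of the region test, given below, through its 60-min sets, so its p-value is a description.

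The widest lost loci measured 214 nt on chromosome 15 (7270150 to 7270363, plus strand) and 198 nt at each of 2 places on chromosome 20 (4586739 to 4586936 and 4626326 to 4626523, plus strand). The chromosome 20 loci have equal widths, 1 call in each 30-min set and in neither 60-min set, and a call in both 0-min sets, in regions of equal span, and whether their reads are shared was not tested. The other lost loci of this kind were 182 nt on chromosome 15 (14279940 to 14280121, minus strand) and 180 nt on chromosome 21 (2993652 to 2993831, minus strand), with no dsRNase call at 0 min. Unlike the chromosome 20 loci, those on chromosomes 15 and 21 lie in regions that kept 1 to 3 constant loci. Those on chromosomes 15 and 21 also held ssRNase calls of replicate 2 of 30 min, which their widths may include.

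Neighbouring loci of 1 strand, with gaps under 500 nt, made up 16935 regions, the nearest thing to transcripts in these lists. Of the gained loci 53.4% lay in a region with a constant locus, as did 53.3% of the lost ones, against 50.1% of all loci that were not constant. A region without any call at 30 min held 679 gained loci (23.6%), and one without any call at 60 min held 644 lost loci (27.4%). The same shares over all loci were not computed, so these are a description. Gained loci were spread over 2051 regions, of which 1549 held 1 and 35 held 5 or more, with a maximum of 17. Lost loci were spread over 1865, of which 1534 held 1 and 19 held 5 or more, with a maximum of 8. Both kinds occurred together in 252 regions, 12.3% of those with a gain and 13.5% of those with a loss. Of all 16935 regions 1865 held a loss and 2051 a gain, so both shares lie near those over all regions.

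Whole regions also appeared and disappeared. Both 60-min sets and neither 30-min set called 653 regions (3.86% of all), and the opposite held for 642 (3.79%). A single locus made up 355 (54.4%) and 362 (56.4%) of them, against 48.1% of all regions, and the largest held 15 and 10 loci. The strands again differed, with 35.5% of the appearing and 61.4% of the disappearing regions on the plus strand, against 55.2% of all regions. At 0 min 321 of the appearing regions (49.2%) and 155 of the disappearing ones (24.1%) had no dsRNase call, against 28.6% of all regions.

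Region by region, few changes stood out from the spread of the replicates. The number of called loci per set, scaled per set and strand, was compared on the log2 scale in the 4474 regions with a mean of at least 2 called loci (limma, Benjamini-Hochberg adjustment at 0.05). More calls at 60 min were found in 57 regions (1.27%) and fewer in 33 (0.738%). These counts depend on the filter on low values and on the fit: there were 3 and 3 at a minimum mean of 1 call, 0 and 0 without a filter (1047 and 928 at an unadjusted p under 0.05), and 203 and 138 with the replicate number as a block. At an unadjusted p under 0.05 there were 374 and 241 with the filter, and the median change over all tested regions was 0.02. Regions with more calls had a median change of 2.15 and those with fewer of -2.10. Scaling per strand takes out any shift of a whole strand, so the split of these calls by strand follows from it in part: 31 plus-strand and 26 minus-strand regions had more calls, and 18 and 15 had fewer. With 1 scaling over both strands, more calls were found in 33 plus-strand and 55 minus-strand regions and fewer in 35 and 14. In all 90 the 2 sets of one time lay above both sets of the other, as they did in 706 tested regions for a rise (15.8%) and 551 for a fall (12.3%).

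The counts also depend on single sets. Leaving out 30-min replicate 1 gave 320 regions with more and 128 with fewer calls, and leaving out 30-min replicate 2 gave 143 and 42. Leaving out 60-min replicate 1 gave 18 and 55, and leaving out 60-min replicate 2 gave 7 and 18. A set left alone at its time was assumed to vary like those of the other. The excess of rises over falls is therefore not stable against leaving out a 60-min set.

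**Figure D3:**
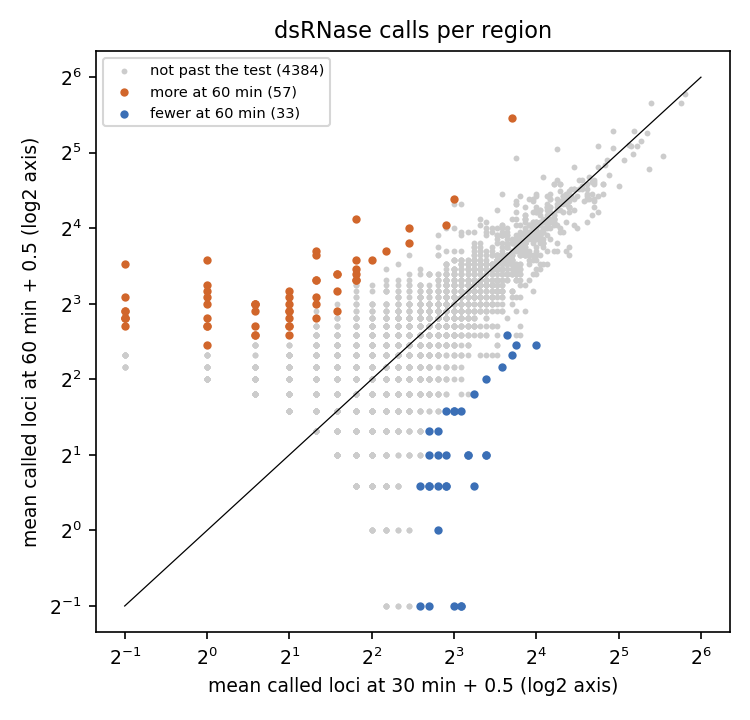
Mean number of called dsRNase loci per region at 30 min (x) and 60 min (y), each plus 0.5 on a log2 axis, for the 4474 tested regions, with those past the test in colour. Of these, 57 lie above the line of equality and 33 below it, and 8 regions at the left edge had no call at 30 min, while 5 at the lower edge had none at 60 min.

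No dsRNase call was found in either 0-min set for 45 of the 57 regions that rose (78.9%), against 540 of all 4474 tested (12.1%). Of the 33 that fell, 2 (6.06%) had none. Summed over the 57, the 0-min sets held 36 and 41 sites, the 30-min sets 151 and 72 called loci and the 60-min sets 562 and 512. Summed over the 33, the 0-min sets held 281 and 268 sites, the 30-min sets 302 and 240 called loci and the 60-min sets 77 and 48. As sums, the first group was low at 0 and 30 min and the second low at 60 min alone.

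The same contrast, weaker, was present without the test. Among the 706 tested regions in which both 60-min sets were above both 30-min sets, 227 (32.2%) had no call at 0 min, and among the 551 in the opposite case 42 (7.62%). Among regions with more calls past the test, the share was 45.9% and 62.9% when 30-min replicate 1 or 2 was left out, and 77.8% (14 of 18) and 100% (7 of 7) when 60-min replicate 1 or 2 was. It was 18.6% (189 of 1016) with sites at or above the median score, 31% (9 of 29) with sites of dsRNase names alone and 49.4% with regions joined at gaps under 200 nt, so the high share does not hold in all settings. In the same settings the share for regions with fewer calls was 9.02%, 20% (2 of 10) and 8.89%, so the contrast was smaller there. For falls it was 20.8% with the 0-min sets in the fit and 23.8% without a mean trend, beside 88.6% for rises in both. Among regions with fewer calls the share was between 6.25% and 16.7% when a set was left out. For the score limit and for dsRNase names alone, the 0-min sites were not limited in the same way. Shares over all tested regions were not taken in the alternative settings.

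The ssRNase libraries are a separate digest of the same homogenates, which the rule did not use. The 57 regions held 0.393% and 0.394% of the sites with an ssRNase call in all tested regions at 30 min and 1.01% and 0.766% at 60 min. The 33 regions held 0.708% and 0.879% at 30 min and 0.226% and 0.306% at 60 min. As shares, the sets of the 2 times did not overlap in either group, in the same direction as the dsRNase calls. The counts behind them are small, at 25 and 43 sites against 49 and 40 in the 57 regions and 45 and 96 against 11 and 16 in the 33.

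Named regions were the 10 with the largest fitted rise and the 10 with the largest fitted fall among the 90. Those without any call at one of the times passed the filter through the other time alone, so they had to differ, and their values are a description. The rest held so few calls at the lower time that they too reached the filter through the other, and their p-values are a description. Without the filter none of the 20 passed, with limma adjusted p from 0.0792 to 0.389. The largest rise was that of a chromosome 9 region (2107001 to 2109989, plus strand) of 15 loci. No set called it at 0 or at 30 min, and the 60-min sets held 9 and 13 called loci. Taking 3 calls per set as the limit that a count of 0 allows, the rise was at least 3.67-fold (limma adjusted p = 0.000809). Covered length went from 0 to 536 nt of its 2989 nt. The region on chromosome 17 (13500120 to 13502713, plus strand) held 0 and 0 called loci and then 8 and 8, at least 2.67-fold (adjusted p = 0.00214), again with no call at 0 min and no ssRNase call at any time. In both, all sites of the 3 lists were those of 60 min.

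Smaller regions with no call at 0 and 30 min lay on chromosome 13 (14752869 to 14753814, minus strand), with 7 and 7 called loci at 60 min, on chromosome 10 (8963306 to 8965029, plus strand), with 7 and 5, and on chromosome 11 (6206774 to 6208763, minus strand), with 8 and 5. These are rises of at least 2.33-fold, 2-fold and 2.17-fold above the floor, with limma adjusted p of 0.00884, 0.0123 and 0.0163. They passed the filter through the 60-min sets alone, so these p-values are a description. A chromosome 6 region (3091779 to 3094090, minus strand) also went from 0 and 0 to 8 and 5 and had 1 site in replicate 1 of 0 min. A single call at 30 min was found in the regions on chromosome 1 (26260239 to 26261753, minus strand), where 1 and 0 became 12 and 11, and on chromosome 13 (17064230 to 17066168, plus strand), where 1 and 0 became 7 and 10. Their fitted changes were 3.74 ± 0.51 and 3.54 ± 0.56 on the log2 scale (SE; limma adjusted p = 0.00146 and 0.00214). Both reached the filter through the 60-min sets, so these p-values too are a description. Without the filter the limma adjusted p was 0.126 and 0.14. The chromosome 1 region held 9 gained loci among its 13, the most of any of the 10.

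A pair of regions on chromosome 23 rose together. That at 5849200 to 5850441 (plus strand) went from 0 and 0 to 7 and 7 called loci, and that at 5823279 to 5824520 (minus strand) from 0 and 0 to 6 and 7 (limma adjusted p = 0.00482 and 0.0138). They lie 24679 nt apart, have the same span of 1242 nt, and 87.4% of their covered positions coincided when one pattern of sites was laid over the other in mirrored orientation. No sequence was compared, and a search for copies by 2 or more shared runs of 3 sites of equal width and spacing found none for either. Whether their reads are shared was not tested. For the other named rises with a neighbour within 100 kb, the best match was at most 39.8%.

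No named rise passed without replicate 2 of 60 min, where the fitted changes stayed between 3.21 and 4.26 and the adjusted p between 0.124 and 0.99. Without replicate 1 of 60 min 7 of the 10 could be tested and 2 passed. All 10 passed without either 30-min set. The 47 further regions with more calls had fitted changes of 1.24 to 3.39, with 0 to 14 called loci per set at 30 min and 4 to 44 at 60 min, and 36 of them had no call at 0 min.

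**Figure D4:**
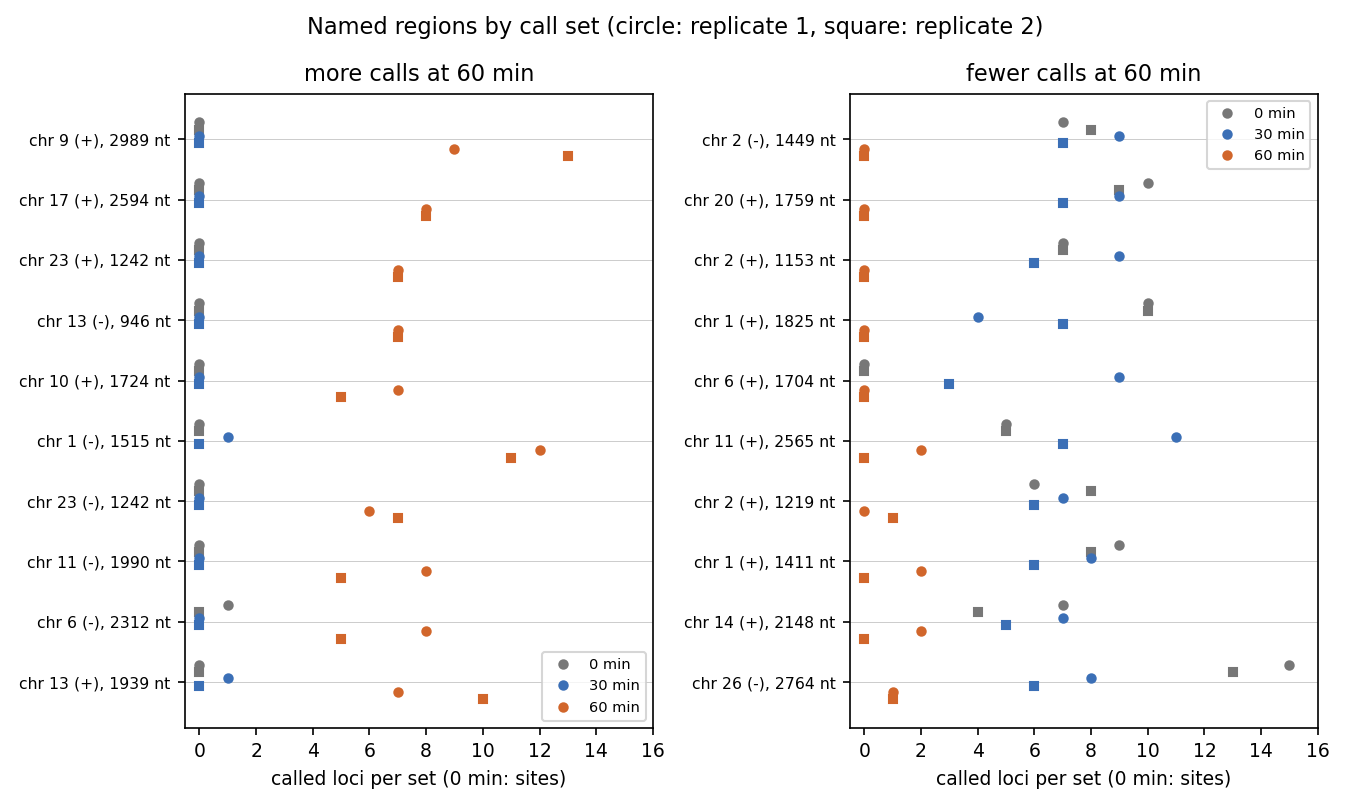
Called loci per dsRNase set in the 10 regions with the largest rise (left) and the 10 with the largest fall (right) from 30 to 60 min, with 0-min sites in grey, 30 min in blue and 60 min in orange, and circles for replicate 1 and squares for replicate 2. On the left, the 0-min and 30-min sets lie at 0 or 1 and the 60-min sets between 5 and 13. On the right, the 60-min sets lie between 0 and 2, and 9 of the 10 regions had sites at 0 min.

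Among the falls, 5 regions had no call left at 60 min. These 5 passed the filter through the 30-min sets alone, so their p-values, here and in the next paragraph, are a description. On chromosome 2 (8264540 to 8265988, minus strand) called loci went from 9 and 7 at 30 min to 0 and 0, at least 2.67-fold below (limma adjusted p = 0.00214), and covered length from 748 nt to 0. Sites at 0 min numbered 7 and 8. On chromosome 20 (3868920 to 3870678, plus strand) called loci went from 9 and 7 to 0 and 0 (adjusted p = 0.00287), after 10 and 9 sites at 0 min. Sites with an ssRNase call numbered 2 and 4 in the chromosome 2 region and 0 and 1 in the chromosome 20 region at 30 min, and there were none in either at 60 min.

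A further chromosome 2 region (8273368 to 8274520, plus strand) lies 7379 nt from the first and fell with it, from 9 and 6 to 0 and 0 (limma adjusted p = 0.00564). In mirrored orientation 77.2% of the covered positions of the 2 regions coincided, again with no sequence compared and no copy found by shared runs. In the plus-strand region of chromosome 1 at 26675627 to 26677451, with 10 and 10 sites at 0 min, called loci went from 4 and 7 to 0 and 0 (adjusted p = 0.0445). The chromosome 6 region (1809162 to 1810865, plus strand) was the exception of the group, with no sites in either 0-min set, then 9 and 3 called loci, then none in either 60-min set (adjusted p = 0.0448). It was thus seen at 30 min alone, and its 30-min replicates differed by a factor of 3.

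The other named falls were partial. They reached the filter through the 30-min sets, so their p-values are a description as well. The region on chromosome 26 (5137498 to 5140261, minus strand) had 15 and 13 sites at 0 min, then 8 and 6 called loci, then 1 and 1, a log2 change of -2.46 ± 0.41 (SE; limma adjusted p = 0.00287). The changes were -3.05 ± 0.57 in a plus-strand region of chromosome 11 (12409121 to 12411685), where 11 and 7 called loci became 2 and 0, and -2.92 ± 0.61 in one of chromosome 2 (6844900 to 6846118), where 7 and 6 became 0 and 1. Regions on chromosome 1 (2577877 to 2579287, plus strand) and chromosome 14 (1912576 to 1914723, plus strand) went from 8 and 6 to 2 and 0 and from 7 and 5 to 2 and 0. At 0 min the latter 4 held 4 to 9 sites per set. The calls on chromosomes 1 (2577877) and 14 did not pass without replicate 2 of 60 min (log2 -1.59 and -1.38, limma adjusted p = 0.204 and 0.453), and the other 8 named falls passed without it. All 10 passed without replicate 1 of 60 min, and the 9 that could be tested passed without either 30-min set.

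**Figure D5:**
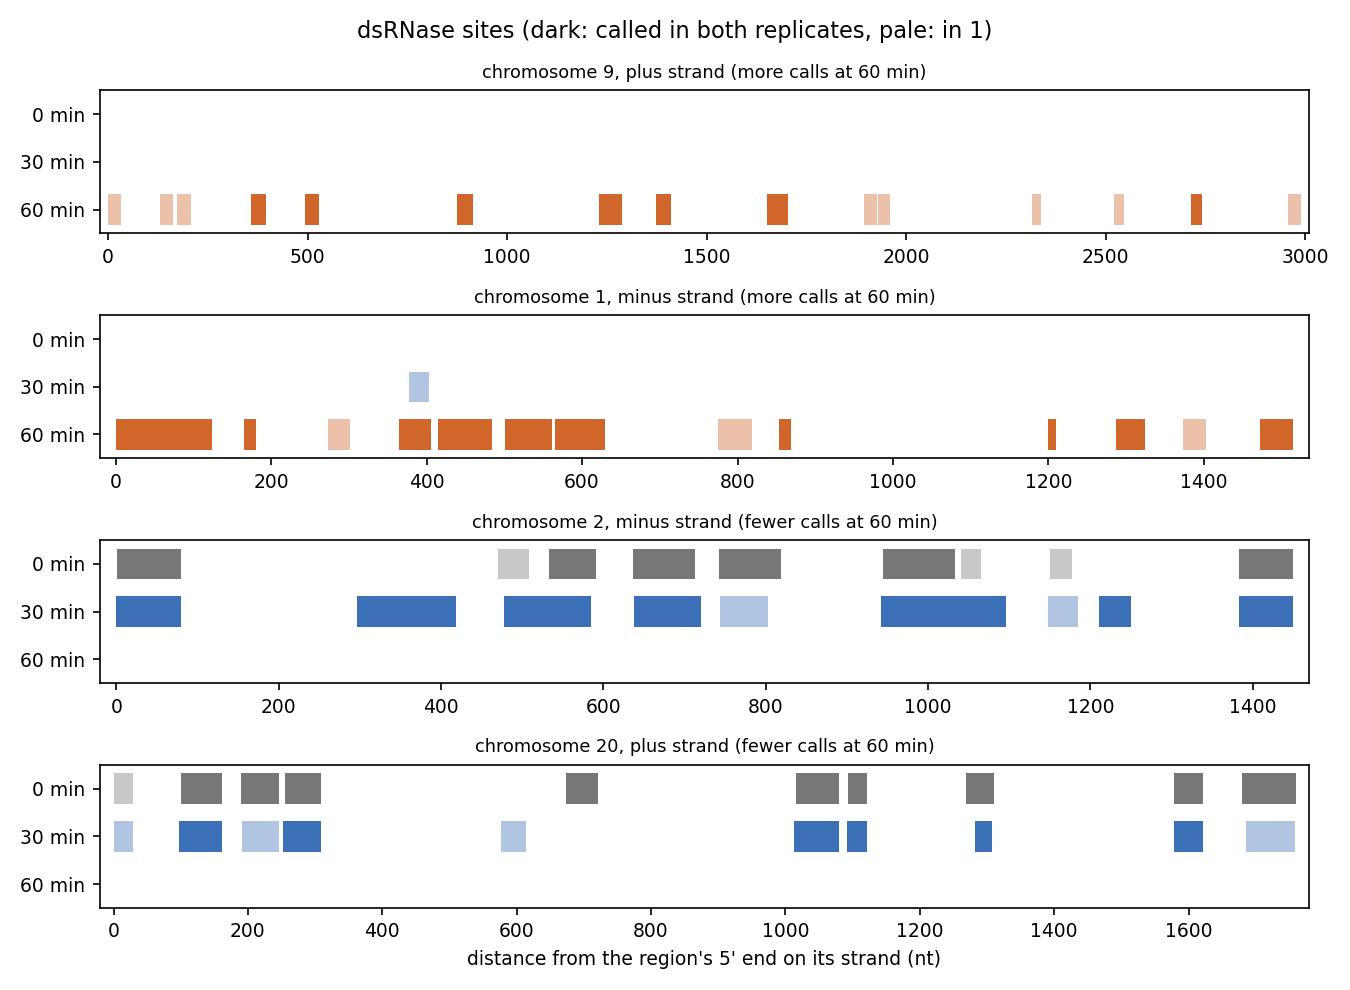
DsRNase sites at 0, 30 and 60 min along 2 regions that rose (chromosomes 9 and 1) and 2 that fell (chromosomes 2 and 20), by distance in nt from the 5′ end of the region on its strand, dark where both replicates called the site and pale where 1 did. The chromosome 9 region is empty before 60 min, and the chromosome 2 and 20 regions are empty at 60 min and hold sites at 0 and at 30 min.

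The changed regions were built of changing loci. In the 57 regions 263 of 684 loci (38.5%) were gained, none was lost and 39 (5.70%) were constant. In the 33 regions 121 of 350 loci (34.6%) were lost, none was gained and 29 (8.29%) were constant. These shares follow from how the regions were chosen and are given as a description, beside 35.3% constant loci over all tested regions. Regions with at least 1 constant locus numbered 25 of the 57 and 19 of the 33, against 3776 of the 4474. The 23 further regions with fewer calls fell by 1.23 to 2.38 on the log2 scale, from 4 to 17 called loci per set at 30 min to 1 to 6 at 60 min, and 22 of them had a call at 0 min.

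The most heavily called regions did not move beyond their spread. On chromosome 21 (2831254 to 2839989, plus strand) the sets held 54 and 57 called loci at 30 min and 54 and 55 at 60 min, with 52 of its 58 loci constant and a change of 0.07 ± 0.30 on the log2 scale (SE; limma adjusted p = 0.957). On chromosome 8, a plus-strand region (3782365 to 3794298) held 52 and 55 and then 50 and 50 (0.00 ± 0.30, adjusted p = 0.995). Its covered length, over the sites of either replicate, was 3609 nt at 30 min and 2900 nt at 60 min. Sites with an ssRNase call in the region numbered 12 and 30 at 30 min and 10 and 24 at 60 min, and their part in this was not tested. The other chromosome 8 region (6188131 to 6197864, minus strand) held 46 and 37 and then 51 and 49 (0.09 ± 0.27, adjusted p = 0.957), after 15 and 17 sites at 0 min, and covered length was 2312 and 2594 nt.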

How the data were processed

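The deposited lists of 30 and 60 min (BED, no header) give position, strand, the merged call names and a score with no stated unit, which the authors deposited. The score served for ranking sites within a list alone. Per the submitters' processing notes, cutadapt 1.2.1 and TopHat2 2.0.10 were used. The mouse build mm10 named there cannot be that of these 27 chromosomes, and no source used here gives the build. The names of the lists carry CSAR, the name of a peak caller, with no version or settings. A reference gene table of another assembly was not used. A call set (time, dsRNase, replicate) was taken as the product of 1 protein-bound library and its structure-only partner.

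Sites were joined into loci at an overlap of 1 nt and into regions at gaps under 500 nt, on the same strand. Called loci per region were scaled per set and strand, and, after 0.5 was added, compared as log2 values over the 4 sets in limma 3.58.1 under R 4.3.3, using a mean trend, for regions with a mean of at least 2. The added 0.5 makes log2 changes too small where calls are few. Levels at 0 min are sites of each set within the region. Exact permutation tests used scipy 1.17.1. In simulated data for this comparison (4563 regions) the test recovered 9.52% of 2-fold, 40.9% of 4-fold and 70.1% of 8-fold changes, with 6 wrong calls. The simulated calls were independent binomial draws from the mean rate of each region, scaled by the set totals. They held no further variation between replicates and no shift of a strand, so these rates need not hold for the real sets. Near copies were sought by laying the covered positions of a named region over those of neighbours within 100 kb. Named were the 10 largest rises and 10 largest falls past the test with sets that do not overlap, the 3 most called regions, and the 5 widest gained and 5 widest lost loci. Regions, rules and settings were chosen with earlier results of these data known. Alternatives varied the score limit, ssRNase-merged sites, joins, filter, prior, scaling, fit and call sets. Sequences and gene names are not reported here.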

Additional observations from a re-analysis of the deposited data

How the results depend on the processing

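All results are limited by 2 call sets per time, by unknown depth and by merged widths. The differences in calls and in width kept their direction with higher-scoring sites, with dsRNase names alone and, for calls, on chromosomes alone. The exceptions for calls were the values of -3743 without replicate 2 of 30 min and -2477 within replicate number 1. Leaving out a set gave differences in calls of -3743 to 7776, gained loci of 4343 to 7856, lost loci of 3801 to 10859, regions with more calls of 7 to 320 and with fewer of 18 to 128. The median position of lost loci then ran from 0.495 to 0.535. With sites at or above the median score of the dsRNase sites of their list there were 5334 gained and 5131 lost loci, 1016 regions with more and 976 with fewer calls, and the agreement within times exceeded that between times by 37.0 percentage points in place of 3.43. That setting removes most replicate spread by construction, since 86.0% and 92.5% of those sites at 30 and 60 min were called in both replicates. With dsRNase names alone the excess was 13.3 points, and there were 7651 gained and 2441 lost loci, a difference of 7152 calls in place of 2016.5, 29 regions with more and 10 with fewer calls. Regions with more and with fewer calls numbered 3 and 3 at a minimum mean of 1 call, 0 and 0 without a filter (limma, 1047 and 928 at an unadjusted p under 0.05), 36 and 16 with a prior of 0.25 calls, 105 and 68 with a prior of 1, 115 and 73 with the prior added before scaling (added after the data were seen), 15 and 10 with calls in place of loci and 35 and 21 without a mean trend. Regions with more calls numbered 88 with scaling over both strands and 35 with the 0-min sets in the fit. With the replicate block they numbered 203 and 138. The replicate numbers are not stated to mark a shared culture, and deviations of same-numbered sets correlated at r = 0.193 across regions, so the unblocked fit was kept. The causes of the other changes were not tested. None of the 20 regions named for a rise or fall changed direction where it could be tested. The 3 most called regions, with changes near 0, did: chromosome 21 to -0.05 with scaling over both strands, and on chromosome 8 the plus-strand region to -0.15 and the minus-strand one to -0.34 with dsRNase names alone. Without replicate 1 of 30 min the chromosome 21 and the plus-strand chromosome 8 region went to -0.28 and -0.35, and without replicate 2 to 0.43 and 0.36. With dsRNase names alone the chromosome 21 region went to 0.996.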
